A study of Mus musculus with 6 samples.

Results

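The genes described here build cholesterol and fatty acids or control that work, and they were measured in mouse regulatory T cells (Tregs) recovered from recipients with or without MHC class II. Their 32 names were taken from a fixed list in 4 groups. Of these, 16 encode enzymes of the mevalonate and sterol pathway, 9 enzymes of fatty acid synthesis, and 2 sterol exporters driven by the nuclear receptor LXR. The other 5, called regulators below, encode the SREBP transcription factors and the proteins that escort or retain them. A row with a single gene symbol represented 31 of the 32, and all 31 passed the filter on low values, out of 15037 genes tested among 19937 with a row. Acat2, the acetyl-CoA acetyltransferase of the mevalonate pathway, has no value here.

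Total T cells of wild-type mice were transferred into CD3ε-deficient mice, which lack T cells of their own. The labels give the strain as C57BL/6, the age as 6 to 8 weeks and the tissue as peripheral lymph nodes and spleen. The MHC II-competent recipients were CD3ε-deficient alone, and the MHC II-deficient recipients also lacked MHC class II, the molecules that show peptides to the T cell receptor of CD4+ cells. Cells positive for CD4, TCRβ and CD25 were recovered 5 days later with magnetic beads and a sorter, and 100 ng of total RNA went onto each Affymetrix whole-transcript array. There were 3 arrays per group, named competent 1 to 3 and deficient 1 to 3 below, and the replicates are labelled as biological without saying whether each is 1 recipient or a pool. The p-values therefore measure the spread between these preparations. All levels are log2 intensities as deposited. A positive difference means a higher level in the cells from MHC II-deficient recipients.

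Cells make cholesterol from acetyl-CoA through mevalonate, farnesyl diphosphate, squalene and lanosterol. When sterol in the endoplasmic reticulum is low, SCAP carries the SREBP precursors to the Golgi for cleavage, and the INSIG proteins hold them back when sterol is high. SREBP2 mainly drives the sterol enzymes and SREBP1 the enzymes of fatty acid synthesis, while LXR, activated by oxysterols, drives the exporters ABCA1 and ABCG1 and also raises SREBP1. In T cells this programme is known to be switched on after T cell receptor stimulation through mTORC1, and in Tregs the mevalonate pathway is known to support proliferation and suppressive function.

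The promoters of 4 genes, 1 from each group, are shown because the group is defined by its transcription factors. Of the 32 genes, 25 have an entry in the RefSeq promoter table (GRCm38.p6), 5 of them with several start sites. Each line is the 250 bases before the start site, 5′ to 3′ on the gene's strand. Capitals mark matches on either strand to CACNCCAC (the core of a sterol regulatory element, which SREBP binds), CCAAT (the box bound by NF-Y, a partner of SREBP) and CACGTG (an E-box, which SREBP1 can also bind).

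Hmgcs1, chr13:119690101-119690350, plus strand: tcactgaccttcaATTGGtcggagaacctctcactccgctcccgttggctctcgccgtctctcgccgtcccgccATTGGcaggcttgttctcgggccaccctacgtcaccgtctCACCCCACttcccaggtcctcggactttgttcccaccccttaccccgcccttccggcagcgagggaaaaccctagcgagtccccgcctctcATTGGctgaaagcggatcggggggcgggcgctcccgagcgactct
Insig1, chr5:28071162-28071411, plus strand: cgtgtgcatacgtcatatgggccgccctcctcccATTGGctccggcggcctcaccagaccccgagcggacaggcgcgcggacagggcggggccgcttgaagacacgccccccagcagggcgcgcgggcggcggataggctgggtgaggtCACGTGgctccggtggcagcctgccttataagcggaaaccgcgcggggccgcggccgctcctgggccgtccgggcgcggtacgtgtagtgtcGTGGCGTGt
Fasn, chr11:120824548-120824797, minus strand: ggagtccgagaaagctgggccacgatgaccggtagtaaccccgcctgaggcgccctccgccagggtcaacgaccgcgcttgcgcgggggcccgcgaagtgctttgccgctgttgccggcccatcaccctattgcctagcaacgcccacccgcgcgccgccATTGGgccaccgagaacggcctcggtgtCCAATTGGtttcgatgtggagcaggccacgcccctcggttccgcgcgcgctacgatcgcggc
Abca1, chr4:53159896-53160145, minus strand: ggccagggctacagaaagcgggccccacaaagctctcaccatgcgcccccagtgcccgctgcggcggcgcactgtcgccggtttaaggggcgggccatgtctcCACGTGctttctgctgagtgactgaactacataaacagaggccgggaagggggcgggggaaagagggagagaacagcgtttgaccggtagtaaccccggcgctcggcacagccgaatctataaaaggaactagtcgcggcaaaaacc

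Hmgcs1 held the sterol element core 136 to 129 bases before its start and 3 CCAAT letters, and Insig1 held 1 match of each motif. Fasn held 3 CCAAT matches, of which 2 overlap, and Abca1 a single E-box. Over the sterol genes with a promoter, 12 of 13 held CCAAT in this window (92.3%), as did 4 of the 5 regulators (80.0%). The share was 33.3% of the 6 fatty acid genes and 37.5% of all genes in the table. The sterol element core was found for 2 of 13 sterol genes (15.4%), 1 of 5 regulators, 0 of 6 fatty acid genes and 6.05% of all genes. The E-box was held by 2 of the 13 sterol genes, 1 of 6 fatty acid genes, 2 of 5 regulators and 6.86% of all genes. A repeat typical of LXR sites, GGTCANNNNGGTCA, was found for none of the 25 and for 0.0518% of all genes. Only these exact letters were searched, so a variant site would be missed, in the Abca1 and Fasn windows too. Of the exporters only Abca1 had a promoter entry. These matches describe letters in the window and not binding.

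The labelled cell type was checked against its markers. The mean over 6 Treg genes, among them Foxp3, ran from 10.26 to 10.51 in the competent and from 10.18 to 10.31 in the deficient arrays. Of these 6 differences 5 were negative, with an unadjusted p of 0.035 for Il2ra, 0.019 for Ctla4 and 0.028 for Ikzf2. The mean over 5 T cell genes was 11.59, 11.54 and 11.49 in the competent and 11.43, 11.46 and 11.42 in the deficient arrays. All 5 differences were negative, and no Treg or T cell gene passed after adjustment. B cell genes were weaker at 5.95 to 6.18 on average, as were dendritic cell genes at 5.63 to 5.78. Within the B cell list Cd79b was lower (unadjusted p = 0.013) and Cd79a higher (unadjusted p = 0.020) in the deficient arrays. Neither passed after adjustment. The B cell and dendritic cell means lay 0.07 and 0.08 higher in the deficient arrays, and 3 other marker lists had larger shifts the same way. The mean over 3 CD8 T and NK cell genes was 7.82, 7.62 and 7.60 in the competent and 7.93, 7.99 and 8.11 in the deficient arrays, with Nkg7 alone between 9.30 and 10.19. The NK cell genes Ncr1 and Klrb1c of this list lay under the filter value, so the mean holds only Cd8a, Cd8b1 and Nkg7. All 3 had an unadjusted p under 0.05 (Cd8a 0.032, Cd8b1 0.022 and Nkg7 0.027) and none passed after adjustment (adjusted p from 0.18 to 0.21). Alas2, the 1 erythroid gene tested, stood at 6.12, 5.92 and 6.50 against 6.70, 6.85 and 6.54 (difference 0.52, adjusted p = 0.11). The part of these cells in the results was not tested. For macrophage markers the mean over 13 genes was 6.67, 7.12 and 6.01 in the competent and 8.04, 7.69 and 7.04 in the deficient arrays. Of these 13, 12 lay higher and 1 lower in the deficient group, and 1, Adgre1, passed the test. Macrophages carry an active sterol and lipid programme of their own, so these values are set beside the results below. In a bulk sample fewer cells of a type and less RNA per cell cannot be told apart. Of the fat cell markers Adipoq, Lep and Cidec lay under the filter value, and Plin1 stood between 6.39 and 6.66.

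None of the 31 genes passed the threshold of limma's test (Benjamini-Hochberg adjusted p under 0.05) in either direction. Over all 15037 tested genes 3.37% passed, 1.34% higher and 2.03% lower in the deficient group, so a count of 0 in 31 lies close to the background. At an unadjusted p under 0.05 there were 5 genes, Fdps, Tm7sf2, Scd1 and Fads2 toward higher and Acly toward lower values. That is 5 of 31, against 18.9% of all tested genes. Of these 5, Scd1 passed the filter on low values only through deficient 1 and 2. The 3 values of each group did not overlap for 4 members toward higher values (Lss, Tm7sf2, Mvk and Abcg1), where 11.4% of all genes did so, and for 2 toward lower values (Pmvk and Acly), where 12.9% did. The median difference was 0.05 over the members and 0.02 over all tested genes, and 19 members had a positive and 12 a negative difference. For 28 of the 31 the 95% interval of the difference lay within 2-fold in either direction, against 97.2% of all genes. For 22 of the 31 it lay within 1.5-fold, against 12460 of the 15037 tested genes. The 3 whose interval reached beyond 2-fold were Scd1, Scd2 and Fads2, all of them desaturases. With each array left out in turn, 24 of the 31 differences moved by over 1.5 times or turned sign in at least 1 case. The other 7 were those of Fdps, Fdft1, Tm7sf2, Mvk, Pmvk, Scd1 and Acly.

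**Figure D1:**
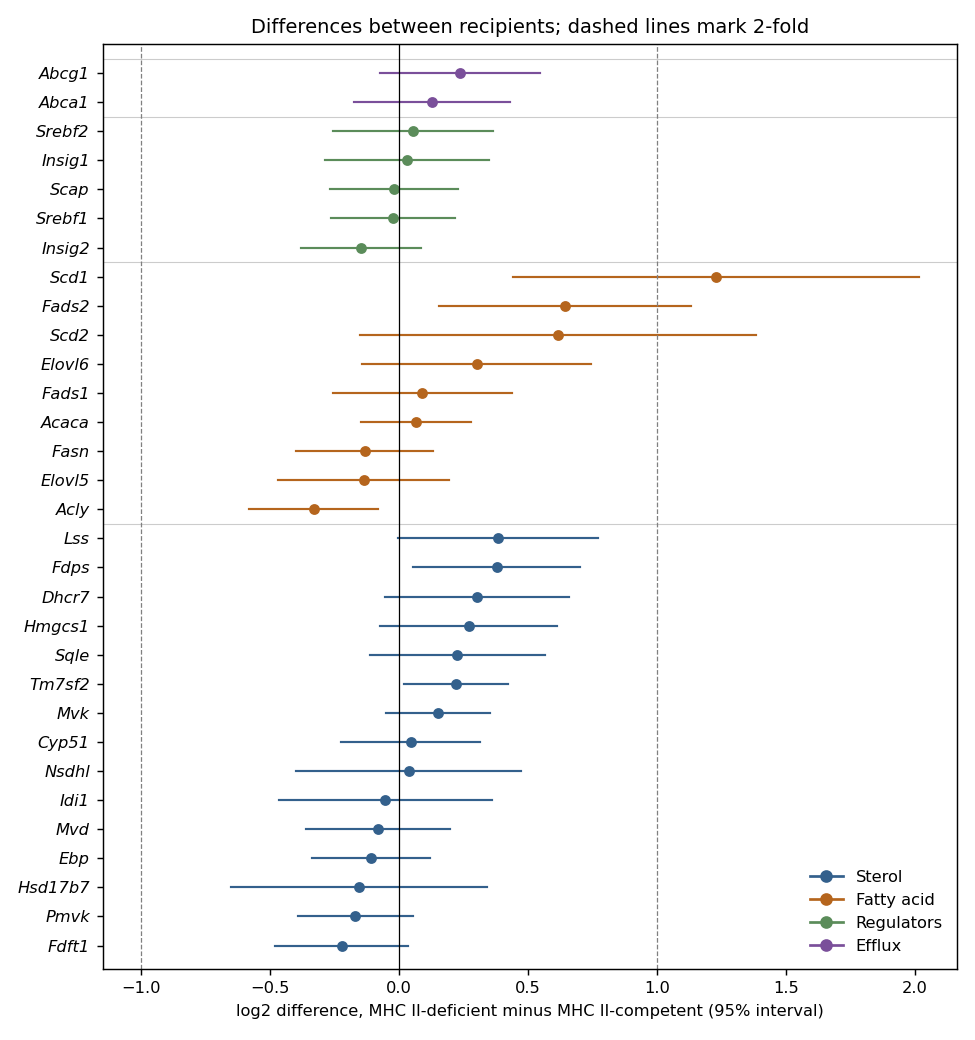
Difference between the group means (point) and its 95% interval from limma (line) for the 31 genes, on the log2 scale, coloured by gene group and sorted within it; n = 3 arrays per group. Intervals of 28 genes lie between the dashed lines at 2-fold, and those of Scd1, Scd2 and Fads2 cross the upper one.

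The early steps of the sterol pathway lead from acetyl-CoA to farnesyl diphosphate. Hmgcs1, which makes HMG-CoA, stood at 8.56, 8.63 and 8.16 in the competent and 8.94, 8.72 and 8.50 in the deficient arrays. Both groups overlap, since deficient 3 lay below competent 1 and 2, and the difference of 0.27 (SE 0.15, adjusted p = 0.38) did not pass. It was 0.12 without competent 3 and 0.16 without deficient 1. Fdps, which makes farnesyl diphosphate for sterols and protein prenylation, stood at 9.32, 9.18 and 8.88 against 9.73, 9.48 and 9.31. It was the sterol enzyme with the smallest p, at a difference of 0.38 (1.30-fold, SE 0.14, 95% interval 0.05 to 0.70, adjusted p = 0.19), and deficient 3 lay just below competent 1. With the macrophage mean as a covariate its difference was 0.03 (SE 0.17), and the part of macrophages in it was not tested. The kinases of the pathway pointed in opposite directions without overlap between the groups. Mvk, which phosphorylates mevalonate, stood at 6.77, 6.83 and 6.76 against 6.96, 6.96 and 6.89 (difference 0.15, SE 0.09, adjusted p = 0.41). Pmvk, which acts on the product of Mvk, stood at 7.37, 7.24 and 7.22 against 7.13, 7.18 and 6.99 (difference -0.17, SE 0.10, adjusted p = 0.40). Mvd, the decarboxylase that follows, had a difference of -0.08 (SE 0.12).

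Idi1, which interconverts the isoprene units, is measured by 2 rows that disagree. The row with the higher mean, used here, stood at 7.95, 8.35 and 7.67 against 8.23, 7.72 and 7.86, a difference of -0.05 (SE 0.18, adjusted p = 0.91). The other row stood at 6.86, 6.51 and 7.69 against 8.21, 7.56 and 7.57, a difference of 0.77 (SE 0.29, adjusted p = 0.20 among all rows tested singly). So the direction for Idi1 depends on the row, and neither row passed. The 2 rows of Fdft1 (-0.22 and -0.05) and of Acaca (0.06 and 0.02) had the same sign.

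The middle of the pathway closes the sterol ring. Fdft1, squalene synthase and the first step committed to sterols, stood at 8.51, 8.45 and 8.29 in the competent and 8.38, 8.13 and 8.06 in the deficient arrays (difference -0.22, SE 0.12, adjusted p = 0.34). Sqle, the squalene epoxidase and a control point of the pathway, stood at 8.56, 8.63 and 8.20 against 8.44, 8.89 and 8.74 (difference 0.23, SE 0.15, adjusted p = 0.47). Both overlapped between the groups, and the difference of Sqle was 0.09 without competent 3, 0.12 without deficient 2 and 0.35 without deficient 1. Lss, which makes lanosterol, stood at 6.20, 6.18 and 5.64 against 6.29, 6.23 and 6.66, with no overlap but with competent 1 just below deficient 2. Its difference of 0.38 (1.30-fold, SE 0.17, adjusted p = 0.27) was 0.20 without competent 3 and 0.25 without deficient 3.

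After lanosterol, 6 enzymes trim and reduce the ring. Tm7sf2, a sterol reductase, stood at 6.46, 6.43 and 6.51 in the competent and 6.66, 6.66 and 6.75 in the deficient arrays. These are tight and separate groups, yet the difference was small at 0.22 (1.16-fold, SE 0.09, 95% interval 0.02 to 0.42, adjusted p = 0.23). Dhcr7, the reductase of the last step to cholesterol, stood at 7.20, 7.02 and 6.58 against 7.09, 7.24 and 7.37 (difference 0.30, SE 0.16, adjusted p = 0.34), a difference that was 0.12 without competent 3. The demethylation enzymes Cyp51 (0.04), Nsdhl (0.04) and Hsd17b7 (-0.15) and the sterol isomerase Ebp (-0.11) had adjusted p-values from 0.62 to 0.94. Among the sterol enzymes Hsd17b7 had the widest spread in the competent arrays, at 7.76, 7.89 and 6.96. Across the 15 sterol enzymes 9 differences were positive and 6 negative, with a median of 0.04 (SE of a single gene, median 0.14). That median was -0.04 without competent 3 and 0.18 without deficient 3.

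**Figure D2:**
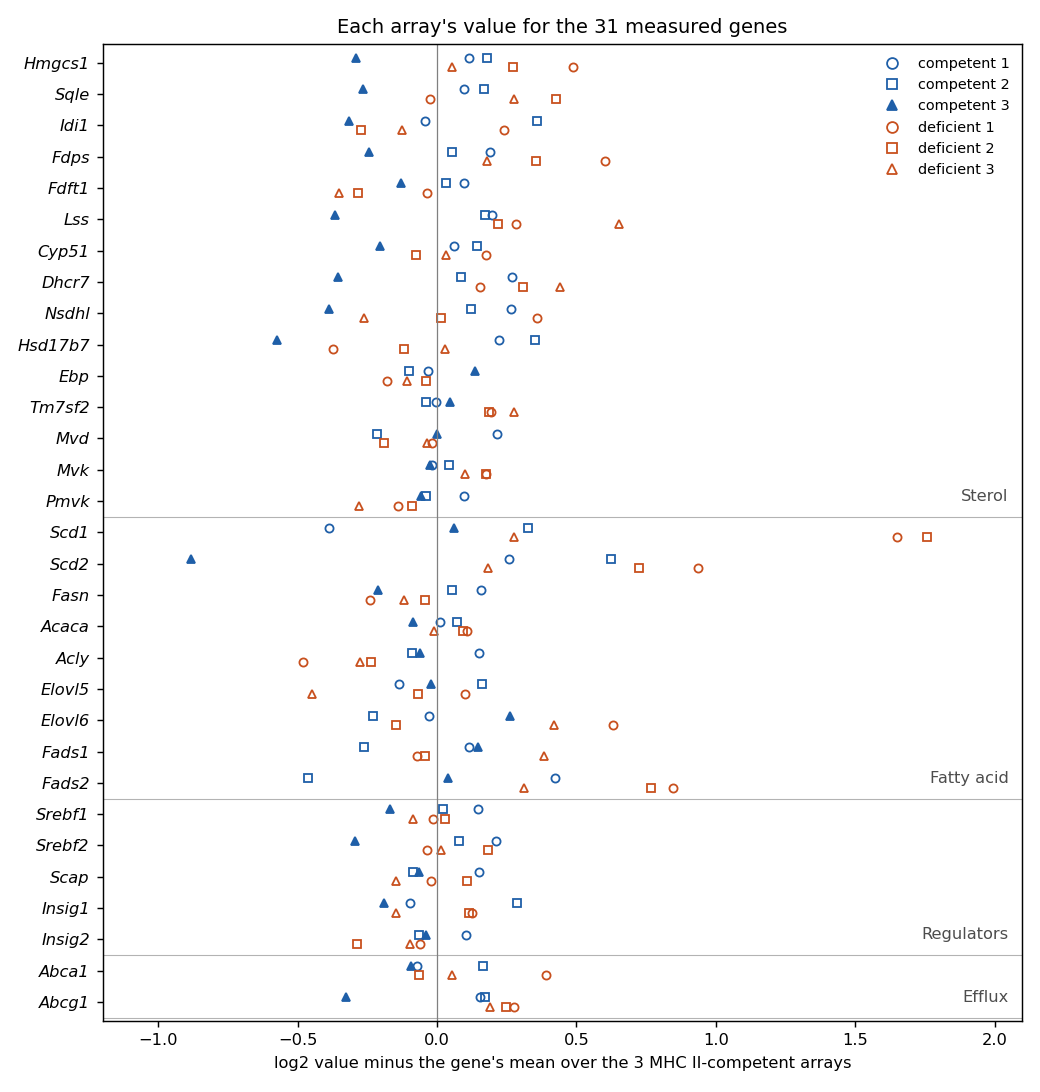
Log2 value of each gene on each array minus that gene's mean over the 3 MHC II-competent arrays (x axis), with genes in rows by group. Blue marks are competent and orange marks deficient arrays, with the replicate given by shape. Competent 3 (filled triangle) is the lowest competent array for 12 of the 15 sterol genes.

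The competent arrays differed among themselves in the sterol enzymes. Competent 3 was the lowest of the 3 competent arrays for 12 of the 15 (80%), where 33.3% of all tested genes had it lowest. It was the lowest of all 6 arrays for 10 of the 15, against 16.5% of all tested genes. The exceptions to the first count were Ebp, Tm7sf2 and Mvd. The mean over the 15 enzymes was 7.92, 7.90 and 7.61 in the competent arrays and 7.94, 7.87 and 7.87 in the deficient arrays. Competent 1 and 2 thus lay within the range of the deficient group, and competent 3 lay below it. A low competent 3 was not limited to these enzymes. It was the lowest competent array for 10 of 13 tested sterol and isoprenoid genes outside the member list (76.9%) and for 12 of 15 further fatty acid and glycerolipid genes (80%), but for 3 of the 9 fatty acid members (33.3%). Among the first, Msmo1, a sterol demethylase, stood at 7.87, 7.99 and 6.84 against 7.82, 7.83 and 7.79, and Sc5d, a sterol desaturase, at 8.33, 8.23 and 7.85 against 8.34, 8.21 and 8.42. Neither passed (adjusted p = 0.66 and 0.51). Pdss2, of ubiquinone synthesis, was highest of the competent arrays on competent 3 (5.09, 5.11 and 5.44), and so was Coq2 of the same route (7.54, 7.23 and 7.69). Competent 3 was also the lowest competent array for 11 of the 13 macrophage markers and 7 of the 9 proliferation genes, and the part of either in these values was not tested.

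**Figure D3:**
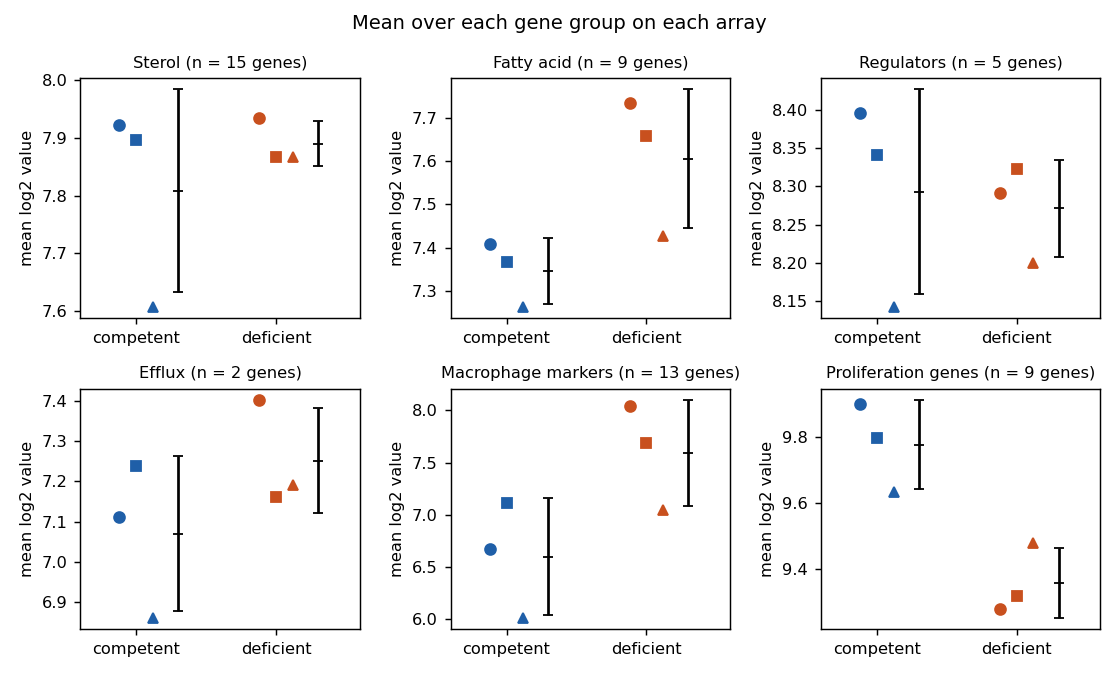
Mean log2 value over each gene group on each array (y axis, one scale per panel), with MHC II-competent arrays in blue, MHC II-deficient arrays in orange, and replicates 1, 2 and 3 as circle, square and triangle. Black bars give the group mean and SD (n = 3). The sterol mean of competent 3 is 7.61 and those of the other 5 arrays lie between 7.87 and 7.94, while the macrophage and proliferation means shift in opposite directions.

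The 5 regulators of the programme lay close to 0, with differences from -0.15 to 0.05. Srebf2, which encodes SREBP2, stood at 8.51, 8.38 and 8.00 in the competent and 8.26, 8.48 and 8.31 in the deficient arrays (difference 0.05, SE 0.14, adjusted p = 0.88). Srebf1, which encodes SREBP1, stood at 7.43, 7.31 and 7.12 against 7.27, 7.32 and 7.20 (difference -0.02, SE 0.11, adjusted p = 0.93). The array row does not separate the SREBP1 isoforms. Both genes overlapped fully between the groups. Scap (-0.02, SE 0.11) and Insig1 (0.03, SE 0.14), itself a target of SREBP2, were as close to 0. The activity of SREBP2 was not measured. Insig1 stood at 8.55, 8.93 and 8.45 against 8.77, 8.76 and 8.49. Insig2, which SREBP does not drive in the same way, stood at 8.98, 8.81 and 8.83 against 8.81, 8.58 and 8.77 (difference -0.15, SE 0.10, adjusted p = 0.49). For all 5 regulators the 95% interval lay within 1.5-fold. The signs of the differences of Srebf1, Srebf2, Scap and Insig1 each turned in at least 1 alternative analysis. The tested genes of SREBP processing outside the list, Mbtps1, Rnf139, Erlin1 and Erlin2, lay between -0.15 and 0.05, and 0 of the 4 passed.

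Fatty acid synthesis starts with Acly, which releases acetyl-CoA from citrate in the cytosol. Acly stood at 8.50, 8.26 and 8.29 in the competent and 7.87, 8.11 and 8.07 in the deficient arrays. Every deficient array lay below every competent one, but the difference of -0.33 (1.26-fold, SE 0.11, 95% interval -0.58 to -0.08) missed the threshold (adjusted p = 0.15). Its values with 1 array left out ran from -0.38 to -0.26. Slc25a1, the carrier that exports the citrate Acly uses, was not a member of the list but lay the same way, at 7.92, 7.70 and 7.55 against 7.48, 7.30 and 7.21 (difference -0.40, SE 0.12, adjusted p = 0.12). Acaca, which makes malonyl-CoA, had a difference of 0.06 (SE 0.09, 95% interval -0.15 to 0.28), and Fasn, the synthase that makes palmitate, one of -0.13 (SE 0.12, 95% interval -0.40 to 0.13). Fasn stood at 7.67, 7.57 and 7.30 against 7.27, 7.47 and 7.39. Proliferation genes, set beside these, had a mean of 9.90, 9.80 and 9.63 in the competent and 9.28, 9.32 and 9.48 in the deficient arrays. Their part in the values of Acly and Slc25a1 was not tested.

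The 3 largest positive differences among the members were those of the desaturases Scd1, Fads2 and Scd2. Scd1, a stearoyl-CoA desaturase that makes oleate, stood at 4.22, 4.93 and 4.66 in the competent and 6.25, 6.36 and 4.88 in the deficient arrays. Deficient 1 and 2 were high and deficient 3 lay within the competent range, so the groups overlap. Those 2 high arrays alone brought its mean over the filter value of 5.21, and the other 4 lay below it, so the size of its difference is uncertain and no test of Scd1 is support for a change. The difference of 1.23 (SE 0.35, 95% interval 0.44 to 2.01) did not pass (adjusted p = 0.10). It crossed the threshold without deficient 3 (1.70, adjusted p = 0.0071) and with the replicate number as a block (adjusted p = 0.031). With the macrophage mean as a covariate it was 0.46 (SE 0.42, adjusted p = 0.63).

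Scd2, the related desaturase of lymphoid cells and brain, stood at 7.77, 8.13 and 6.63 in the competent and 8.45, 8.23 and 7.69 in the deficient arrays. Its difference of 0.62 (1.53-fold, SE 0.34, adjusted p = 0.37) was 0.17 without competent 3. The sign turned to -0.49 with the macrophage covariate. Within each group its arrays stood in the same order as the macrophage mean. The same was true of Hmgcs1, Mvk, Acaca, Insig1 and Abcg1, thus of 6 of the 31 members, where 2.9% of all tested genes had that order. Some of these orders rest on small gaps, such as Mvk at 6.767 on competent 1 and 6.762 on competent 3. These genes all share a low competent 3, so they are not independent counts. The part of macrophages in this order was not tested. An array row can bind near-identical copies, so the split between Scd1 and Scd2 is uncertain.

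Fads2, which desaturates the essential polyunsaturated fatty acids, stood at 6.35, 5.47 and 5.97 in the competent and 6.77, 6.70 and 6.24 in the deficient arrays. Only competent 1 reached into the deficient range, above deficient 3. The difference of 0.64 (1.56-fold, SE 0.22, 95% interval 0.15 to 1.13, adjusted p = 0.15) was 0.41 without competent 2 and 0.60 with the macrophage covariate. Fads1, the next desaturase of the same route, had a difference of 0.09 (SE 0.16, adjusted p = 0.81). The elongases did not pass either. Elovl6, which lengthens palmitate, stood at 8.42, 8.21 and 8.71 against 9.08, 8.30 and 8.87 (difference 0.30, SE 0.20, and 0.14 without deficient 1), and Elovl5, which lengthens polyunsaturated chains, at 9.66, 9.96 and 9.77 against 9.90, 9.73 and 9.35 (difference -0.14, SE 0.15). Over the 9 fatty acid genes 6 differences were positive and 3 negative, with a median of 0.09, against 0.04 for the sterol enzymes. Their mean was 7.41, 7.37 and 7.26 in the competent and 7.73, 7.66 and 7.43 in the deficient arrays, a difference of 0.26 without overlap, in which the 3 desaturases above are included. Without Scd1, left out after its values were seen, the mean was 7.81, 7.67 and 7.59 against 7.92, 7.82 and 7.74, a difference of 0.14, and deficient 3 lay below competent 1.

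**Figure D4:**
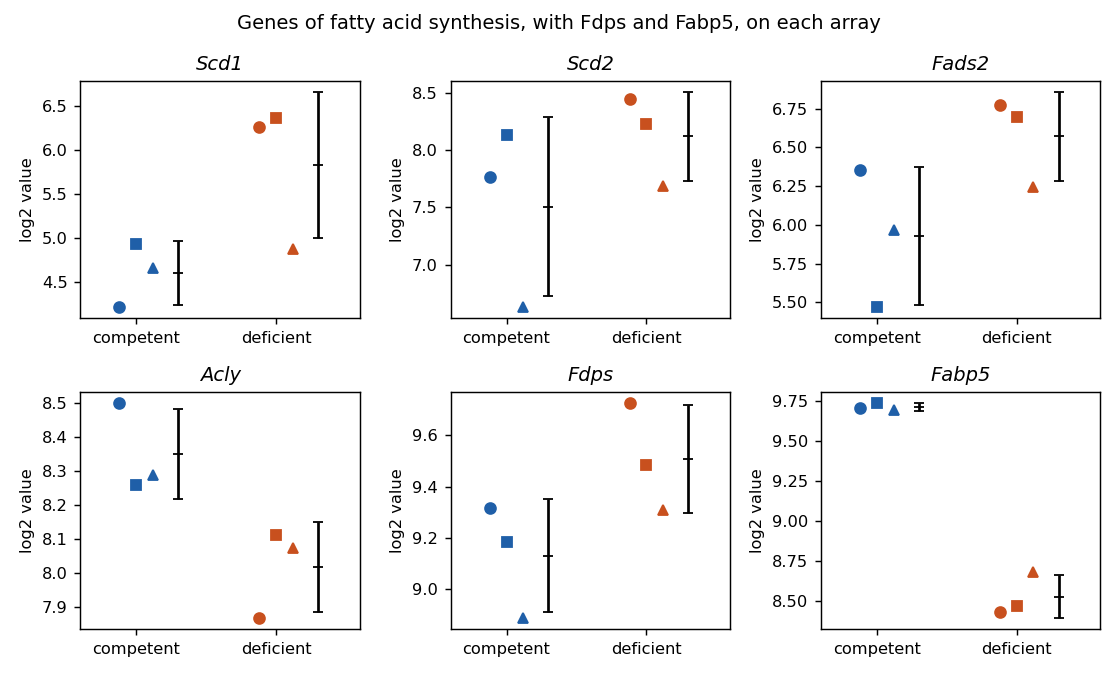
Log2 value on each array (y axis, one scale per panel) for Scd1, Scd2, Fads2, Acly, Fdps and Fabp5, with MHC II-competent arrays in blue, MHC II-deficient arrays in orange and replicates 1, 2 and 3 as circle, square and triangle. Black bars give the mean and SD (n = 3). Acly and Fabp5 show separate groups, and of these 6 genes Fabp5 alone passed the test.

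The exporters that LXR drives lay slightly higher without passing. Abcg1, which passes cholesterol to lipoproteins, stood at 8.19, 8.21 and 7.71 in the competent and 8.31, 8.28 and 8.23 in the deficient arrays. The groups did not overlap, but competent 2 lay just below deficient 3, and the difference of 0.24 (SE 0.14, adjusted p = 0.40) was 0.07 without competent 3. Abca1, which loads cholesterol onto lipid-poor apolipoprotein, stood at 6.03, 6.27 and 6.01 against 6.49, 6.04 and 6.16 (difference 0.13, SE 0.13, adjusted p = 0.67). With the macrophage mean as a covariate the signs turned, to -0.06 for Abcg1 and -0.11 for Abca1.

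Of 44 further genes of these pathways, 37 were tested, and 1 fell while none rose, beside the 3.37% of all genes called. At an unadjusted p under 0.05 there were 5 of the 37, against 18.9% of all tested genes. The 1 gene that fell was Fabp5, a fatty acid binding protein that carries fatty acids within the cell. It stood at 9.70, 9.74 and 9.69 in the competent and 8.43, 8.47 and 8.68 in the deficient arrays, far apart and tight within each group. It fell by 1.18 on the log2 scale (2.27-fold, SE 0.10, adjusted p = 0.00084) and passed in every alternative analysis run, the macrophage covariate included (-1.09, adjusted p = 0.026). A second row of Fabp5 stood at 8.56, 9.23 and 8.72 against 7.04, 7.12 and 7.27. Copies of Fabp5 elsewhere in the genome may bind to these rows. Among the LXR and sterol sensing genes, Rxrb, a partner receptor of LXR, stood at 6.79, 6.61 and 6.48 against 7.02, 7.02 and 6.99 (difference 0.38, SE 0.11, adjusted p = 0.089). Mylip, an LXR target that degrades lipoprotein receptors, stood at 7.56, 7.59 and 7.23 against 7.80, 7.69 and 7.85 (difference 0.33, SE 0.12, adjusted p = 0.18). Rxrb and Mylip had separate groups and missed the threshold. Lpcat3, from the same list, lay the other way without overlap, at 8.33, 8.17 and 8.15 against 8.14, 8.00 and 7.69. Its difference of -0.27 (SE 0.13, adjusted p = 0.29) did not pass either. Nr1h3 (0.27) and Rxra (-0.03) overlapped between the groups, so these 5 genes split into 3 positive and 2 negative differences. All 5 were named after their values were seen, as were Msmo1, Sc5d, Pdss2, Coq2 and Slc25a1.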

How the data were processed

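The authors ran RMA in affy, per the submitters' processing notes, a method that corrects background, normalizes between arrays and summarises probes per row. The deposited table holds 28101 rows of log2 values per array, from 2.40 to 13.3 with array medians of 6.11 to 6.25. The log base was taken as that of RMA output. Versions, annotation and genome build are not given in the sources used here.

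Rows with 1 platform gene symbol (21640 rows, 21553 of them matched by Entrez identifier to RefSeq, GRCm38.p6) were kept, those with several (1321) or none (5140) were left out, and of several rows of a gene that with the highest mean was used. Genes with a mean under 5.21, the 25th percentile of gene rows, were removed (4900). The other 15037 entered limma (version 3.58.1, R 4.3.3) with lmFit and eBayes (two-sided, no covariate, 4 residual degrees of freedom, 9.40 with the prior). P-values were adjusted over all tested genes by the Benjamini-Hochberg method, with a threshold of 0.05. Errors are limma's standard errors.

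On simulated data for these genes and this comparison, the fit recovered 1 of 50 genes changed by 0.3 on the log2 scale, 14 of 50 at 0.5, 42 of 50 at 1 and 49 of 50 at 1.5. It called 114 genes in all there, against 507 in the data. The adjusted threshold was thus stricter in the simulation, and these rates may understate those of the data. The members and lists were chosen with earlier results of these data known, so no list was tested. All members are described, with each array's values for those past the threshold and the 3 with the smallest p in each group, and further ones for context. Tools other than limma were not run.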

Additional observations from a re-analysis of the deposited data

How the results depend on the processing

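No sterol enzyme, regulator or exporter passed the threshold in any of the 15 alternative fits, and Fabp5 passed in all of them. Among the fatty acid genes 1, Scd1, passed with the replicate block and without deficient 3, and the range with 1 array left out was 0 to 1. These passes are no support for a change, since deficient 1 and 2 alone brought Scd1 over the filter value. Over all genes the count of 507 ran from 159 (without deficient 1) to 708 (without competent 3) with 1 array left out, and was 736 with array weights and 70 with the macrophage mean as a covariate, a fit with 3 residual degrees of freedom. That covariate moved the medians of the fatty acid genes to -0.069, of the regulators to -0.14 and of the exporters to -0.086. It turned the signs of Hmgcs1 (-0.16), Cyp51 (-0.18), Nsdhl (-0.50), Ebp (0.031), Mvd (0.0074), Scd2 (-0.49), Acaca (-0.069), Srebf2 (-0.14), Insig1 (-0.32), Abca1 (-0.11) and Abcg1 (-0.058), none past the threshold. With the same covariate the positive differences of Tm7sf2 (0.30), Elovl6 (0.51) and Fads1 (0.50) were larger than in the main fit, also not past the threshold. Quantile normalization turned Scap (0.041), median centring Cyp51 (-0.0096), Nsdhl (-0.017), Srebf2 (-0.0011) and Insig1 (-0.024), and array weights Nsdhl (-0.046) and Srebf2 (-0.016). Idi1 turned with the mean of its rows (0.36) and with its other row (0.77), an alternative chosen after seeing the data. With 1 array left out the sterol median ran from -0.042 to 0.18, and the differences that changed sign ran from -0.21 to 0.13 for Idi1, -0.058 to 0.12 for Cyp51, -0.16 to 0.19 for Nsdhl, -0.44 to 0.021 for Hsd17b7, -0.19 to 0.026 for Mvd, -0.26 to 0.017 for Elovl5, -0.057 to 0.17 for Fads1, -0.11 to 0.049 for Srebf1, -0.093 to 0.16 for Srebf2, -0.083 to 0.056 for Scap, -0.064 to 0.17 for Insig1 and -0.0047 to 0.22 for Abca1. The causes of these changes were not tested. No filter on low values and the trended robust prior changed no sign and no call of a member, and a filter at the median left out Lss, Scd1, Fads2 and Abca1. The labels do not say that equal replicate numbers pair the arrays, and the deviations of equal numbers correlated at -0.02, -0.14 and 0.07, so the numbers were not taken to pair them. With the replicate block 564 genes passed in all, Scd1 stood at an adjusted p of 0.031, and no other call of a member changed. Differences near 0.3 were rarely recovered on simulated data with 3 arrays per group, where fewer genes passed (114) than in these data.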
